A study of Mus musculus with 9 samples.

Results

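Toll-like receptors and their adaptors were followed through 10 genes: the receptors Tlr1, Tlr2, Tlr3, Tlr4, Tlr6, Tlr7 and Tlr9, the co-receptors Cd14 and Ly96, and the adaptor Myd88. They were found by exact symbol in the deposited tables. All 10 are among the 16367 genes of the table of sorted cells. The culture table, with 17035 genes, lists 9 of them, and Tlr9 is not listed there.

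RNA sequencing was analysed in 9 mouse retinal libraries, 3 in each of 3 groups, all of wild-type genotype (WT) and all labelled as Müller glia, which are the radial glial cells that span the retina. In the ocular hypertension (OHT) group both anterior chambers had received 1.2 µL of silicone oil, and the sham group had only a corneal incision. Each sorted library came from 4 pooled retinas, dissociated with papain, cleared of dead cells and captured on magnetic beads through GLAST (ACSA-1), a glutamate transporter that astrocytes carry as well. The 3 untreated primary cultures came from C57BL/6J pups of postnatal day 8 to 10, grown in serum on gelatin and passaged; the labels give no strain or age for the sorted animals. Nothing in the labels ties the 3 libraries of a group to separate litters or days, so p-values measure the spread between these libraries.

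Toll-like receptors recognise molecules of microbes and of damaged cells. Those at the cell surface bind lipids and lipoproteins, those in endosomes bind nucleic acids, and nearly all of them signal through MyD88 to NF-kB and interferon regulatory factors, which switch on cytokine genes. In the retina and brain the receptors are best known from microglia and macrophages, and Müller glia have also been described to carry some of them.

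Depth was 37.8 to 44.5 M (1e6) reads in the sham libraries, 47.1 to 53.6 M in the OHT libraries and 66.3 to 76.7 M in the cultures. OHT replicate 1 stood apart in scaling, with a deposited total of 65797400 against 37773200 to 44115900 in the other 5 sorted libraries. The label was checked against marker genes. A Müller glia list without Apoe, which microglia also express, made up 0.363% to 0.871% of the sham, 0.196% to 0.416% of the OHT and 0.273% to 0.357% of the culture libraries. Vim, which many cultured cells express, carried the culture value: without it as well, a choice made after the data were seen, the list was at 0.348% to 0.858% in sham, 0.185% to 0.407% in OHT and 0.0256% to 0.0424% in the cultures. A microglia and macrophage list (13 of 14 genes listed, Fcrls not) made up 2.45% to 3.83% of sham and 2.98% to 4.04% of OHT libraries, more than the Müller glia list in each of them. The sorted fraction therefore held much RNA of microglial genes. In the cultures the microglia and macrophage list was at 0.00943% to 0.0147%. P2ry12 was there at 0.0261 to 0.151 ppm and Aif1 at 0.0603 to 0.235 ppm (reads per 1e6 reads of a library). The cultures also went against their label in part. Glul, the glutamine synthetase that marks Müller glia, was at 24.9 to 48.2 ppm against 495 to 2088 ppm in sorted cells. A list of mural cells and fibroblasts made up 1.62% to 1.92% of the cultures. In it Acta2 was at 8134 to 13250 ppm and the collagen gene Col1a1 at 4121 to 6521 ppm. Rgs5 of that list went the other way, at 2.58 to 3.44 ppm against 4.85 to 226 ppm in sorted cells. The other genes of the list were higher in the cultures than in each sorted library.

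RefSeq promoter windows were present for 6 of the 10 genes, in 8 windows of the GRCm38.p6 build, and the 250 bases before each start were searched for short words that factors downstream of these receptors, or of macrophage identity, are known to bind. The 4 windows shown are those of Tlr6 and Tlr9, which had the highest OHT values relative to sham among the receptors, of Tlr3, which had the lowest, and of the adaptor Myd88. Capitals mark the words found.
Tlr6, chr5:64959167-64959416, minus strand: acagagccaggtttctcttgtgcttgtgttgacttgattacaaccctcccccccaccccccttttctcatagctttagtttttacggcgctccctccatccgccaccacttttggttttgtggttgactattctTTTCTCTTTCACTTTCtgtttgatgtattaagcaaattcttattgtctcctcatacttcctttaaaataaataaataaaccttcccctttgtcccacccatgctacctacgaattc
Tlr9, chr9:106222348-106222597, plus strand: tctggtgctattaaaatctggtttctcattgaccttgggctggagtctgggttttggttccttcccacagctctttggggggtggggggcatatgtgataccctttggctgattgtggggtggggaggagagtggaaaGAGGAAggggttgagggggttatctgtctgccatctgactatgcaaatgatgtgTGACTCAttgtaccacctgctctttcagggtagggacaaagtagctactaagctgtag
Tlr3, chr8:45410381-45410630, minus strand: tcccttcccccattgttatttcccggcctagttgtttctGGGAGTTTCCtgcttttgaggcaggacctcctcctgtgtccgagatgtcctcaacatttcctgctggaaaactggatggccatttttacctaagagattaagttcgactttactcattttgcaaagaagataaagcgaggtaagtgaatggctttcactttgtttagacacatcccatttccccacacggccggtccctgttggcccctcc
Myd88, chr9:119340019-119340268, minus strand: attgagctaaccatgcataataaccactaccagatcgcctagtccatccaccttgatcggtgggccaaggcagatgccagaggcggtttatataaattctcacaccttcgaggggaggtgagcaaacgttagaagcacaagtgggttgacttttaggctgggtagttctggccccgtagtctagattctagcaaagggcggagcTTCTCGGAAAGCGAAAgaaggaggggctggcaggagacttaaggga

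Each word was searched on both strands, and its share is that of all 32851 RefSeq windows of the same length. The window of Tlr6 held 2 overlapping matches to the interferon response word GAAANNGAAA, on the opposite strand, 116 to 101 bases before the start; 2.98% of windows hold this word. That of Myd88 held 1 match to it, 40 to 31 bases before the start, overlapping a match to the GAS word TTCNNNGAA, which is bound by STAT factors and found in 7.02% of windows. In Tlr9 the PU.1 word GAGGAA (23.3% of windows) and the AP-1 word TGANTCA (6.75%) were found. Tlr3 held the NF-kB word GGGNNTTTCC, found in 1.41% of windows. Of the windows not shown, Tlr1 held the GAS word in one and the PU.1 word in the other, the second Tlr6 window held none of the words, and the Tlr2 window held none. Tlr4, Tlr7, Cd14 and Ly96 were not matched. These matches describe letters in the windows.

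To ask whether pressure-raising oil changed these genes in the sorted cells, OHT was compared with sham by limma on log2(normalised count + 1). The normalised count is a gene's reads divided by the authors' factor for that library, and log2 differences are OHT minus sham on this scale. No member passed an adjusted p of 0.05, and neither did any other of the 14403 tested, those averaging 10 normalised counts or more (0% of genes, smallest adjusted p = 0.332). All 10 members were among those genes. At an unadjusted p below 0.05 there were 3 members, Tlr6, Tlr9 and Ly96, all higher in OHT, beside 5.37% of all genes that were higher at that level. That count moved when single libraries were left out. It was 0 without OHT replicate 1 and 1 without OHT replicate 3, sham replicate 2 or sham replicate 3. It was 2 without sham replicate 1 and 3 without OHT replicate 2. Without sham replicate 3 the member at that level was Tlr2 (log2 difference 0.98, SE 0.36), and not Tlr6, Tlr9 or Ly96. Of all 14403 genes, 773 were higher at that level, and this number moved as well. It was 436, 1198 and 893 without OHT replicates 1, 2 and 3. Without sham replicates 1, 2 and 3 it was 606, 233 and 596. In 5 members, namely Tlr2, Tlr6, Tlr9, Cd14 and Ly96, each OHT library lay above each sham library, against 9.26% of all genes. No member lay below throughout, against 9.18% of genes. The median log2 difference of the 10 members was 0.56 and that of all genes -0.12, with 7 members above 0 and 3 below.

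**Figure D1:**
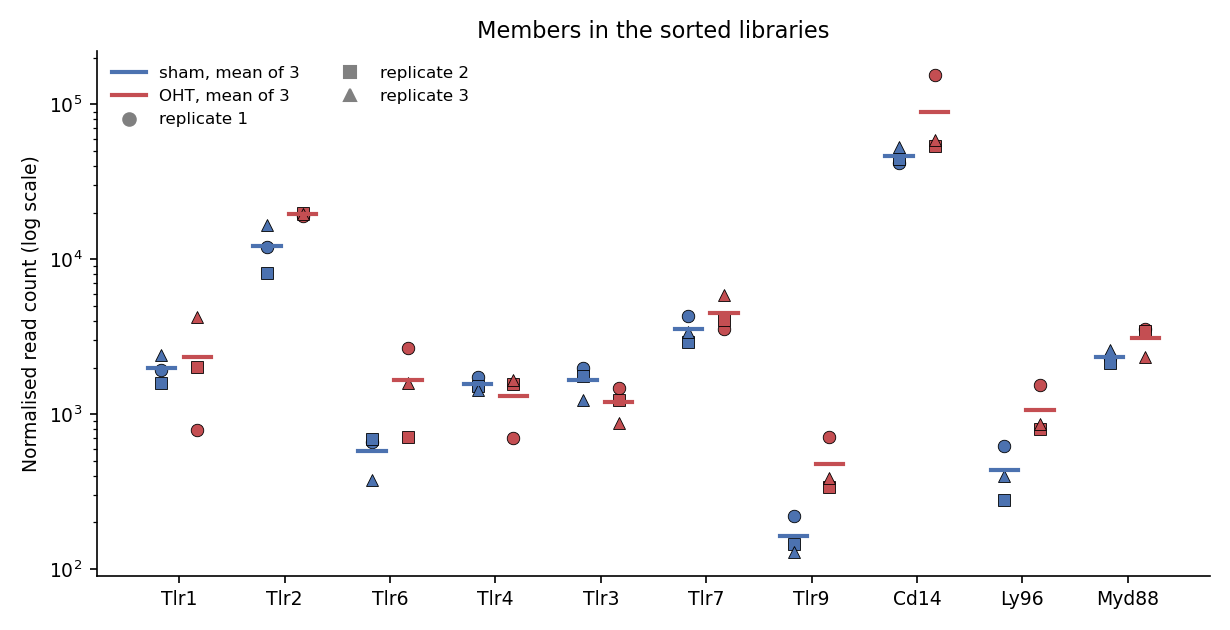
Normalised read counts (log axis) of the 10 genes in the 3 sham and 3 OHT libraries; symbols give the replicate and bars the mean of 3. OHT replicate 1 is the highest library for Tlr6, Tlr9, Cd14, Ly96 and, by a small margin, Myd88, and the lowest for Tlr1 and Tlr4.

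Among the receptors of the cell surface, Tlr2 recognises bacterial lipoproteins, paired with Tlr1 or Tlr6. Its normalised counts were 11923, 8180 and 16544 in sham replicates 1 to 3 and 18953, 19909 and 19652 in OHT replicates 1 to 3. On this scale the OHT libraries were close to each other and all above the sham libraries, while in ppm they were at 288, 451 and 520 and overlapped the sham range of 208 to 389. The log2 difference of 0.73 (SE 0.34) did not pass the test (limma adjusted p = 0.432). Tlr6, the partner for diacylated lipoproteins, had 663, 695 and 373 in sham and 2663, 708 and 1582 in OHT. Its lowest OHT library was barely above the highest sham library, and the difference was 1.37 (SE 0.55, limma adjusted p = 0.387). Tlr1, the partner for triacylated lipoproteins, had 1939, 1588 and 2404 in sham and 794, 2006 and 4248 in OHT. The OHT libraries lay on both sides of the sham range, so that the difference of -0.04 (SE 0.55, limma adjusted p = 0.979) turned to 0.58 without OHT replicate 1 and to 0.11 without sham replicate 3.

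Tlr1 and Tlr6 are related genes that lie close together on chromosome 5 and have a stretch of identical sequence. In GENCODE M21 transcripts 139 windows of 150 bases are shared between them, 4.83% of those of Tlr1 and 3.94% of those of Tlr6, so a small part of their reads could be split either way. Per kilobase of the longest transcript the ratio of Tlr1 to Tlr6 was 2.78 to 7.83 in sham, 3.44 in OHT replicate 2, 3.26 in OHT replicate 3 and 0.363 in OHT replicate 1. Only OHT replicate 1 among the 6 sorted libraries held more Tlr6 than Tlr1 by this measure.

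Tlr4 is the receptor for lipopolysaccharide, to which Cd14 delivers the ligand and with which Ly96 (MD-2) forms the binding site. Tlr4 counts were 1747, 1518 and 1430 in sham and 699, 1571 and 1674 in OHT. OHT replicates 2 and 3 lay within the sham range and OHT replicate 1 below it; the difference was -0.35 (SE 0.44, limma adjusted p = 0.743) and became 0.06 without that library. Cd14 counts were 41612, 44184 and 53099 in sham and 155790, 54011 and 58732 in OHT. The groups did not overlap, but OHT replicates 2 and 3 were just above the highest sham library, and the difference of 0.78 (SE 0.44, limma adjusted p = 0.498) was 0.29 without OHT replicate 1. Ly96 counts were 626, 278 and 399 in sham and 1534, 802 and 865 in OHT. All 3 OHT libraries were above the sham range, with a difference of 1.31 (SE 0.53, limma adjusted p = 0.385).

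The 3 genes of the lipopolysaccharide receptor were not in a fixed proportion across these libraries. Per kilobase, the ratio of Ly96 to Tlr4 was 1.12 to 2.19 in sham and 3.13, 3.16 and 13.4 in OHT, without overlap. With the median transcript length, which scales a ratio by the same factor in every library, it was 0.363 to 0.712 and 1.02 to 4.36. The ratio of Cd14 to Tlr4 was 59.2 to 92.3 in sham, 85.4 and 87.2 in OHT replicates 2 and 3, and 554 in OHT replicate 1. Across 13849 genes, the deviation of a library from each gene's mean was set against length of the transcript. Spearman rho was 0.09, 0.17 and 0.08 in sham replicates 1 to 3 and -0.22, -0.08 and 0.05 in OHT replicates 1 to 3. With GC content it was 0.03, 0.10 and 0.18 in sham and -0.08, 0.14 and -0.21 in OHT. These are values across genes, which are not independent replicates. When length and GC content of the transcripts were corrected for in every library, the difference was 0.48 for Ly96, 0.75 for Cd14 and -0.21 for Tlr4. It was 1.63 for Tlr6 and 2.16 for Tlr9. The part of transcript length in the ratios was not tested.

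The receptors of the endosome bind nucleic acids: Tlr3 RNA duplexes, Tlr7 RNA of a single strand and Tlr9 DNA with unmethylated CpG. Tlr3 counts were 1978, 1761 and 1238 in sham and 1474, 1237 and 874 in OHT. OHT replicate 1 lay within the sham range and the other 2 below it, and the difference was -0.48 (SE 0.41, limma adjusted p = 0.627). Tlr7 counts were 4291, 2906 and 3405 in sham and 3536, 4080 and 5846 in OHT. OHT replicates 1 and 2 lay within the sham range and OHT replicate 3 above it, with a difference of 0.33 (SE 0.35, limma adjusted p = 0.697). Tlr9 counts were 219, 145 and 129 in sham and 707, 340 and 386 in OHT. The lowest OHT library stood well above the highest sham library, and the difference was 1.50 (SE 0.65, limma adjusted p = 0.417). Per kilobase Tlr7 exceeded Tlr9 in each sorted library, by 17.5 to 23.5 times in sham and 4.46 to 13.5 times in OHT, without overlap between the groups. Among the ratios read between members, those of Ly96 to Tlr4 and of Myd88 to Tlr3 also did not overlap. Those of Cd14 to Tlr4, Tlr2 to Tlr1, Tlr2 to Tlr6, Tlr1 to Tlr6 and Tlr3 to Tlr7 overlapped. The share of other gene pairs whose ratios separate the groups was not computed.

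Myd88, the adaptor that joins most of these receptors to the IRAK kinases, had counts of 2311, 2132 and 2613 in sham and 3534, 3468 and 2352 in OHT. OHT replicate 3 lay within the sham range, and the difference was 0.39 (SE 0.34, limma adjusted p = 0.643). Tlr3 is the receptor that signals without Myd88, and the per-kilobase ratio of Myd88 to Tlr3 was 2.09 to 3.78 in sham and 4.30 to 5.03 in OHT. With the median transcript length, again the same factor in every library, it was 0.421 to 0.761 and 0.865 to 1.01. In GENCODE M21, 11.3% of the exonic bases of Myd88 overlap Acaa1a and 7.32% of those of Tlr3 overlap Gm45542, each on the other strand. How strand was used in counting is not given in the sources used here: reads of these stretches cannot be told apart.

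How far the members stood from 0 depended on the scale. In ppm of each library's reads, a scaling added after the data were seen, the median difference of the members was 0.31 against -0.36 for all genes. No member had an unadjusted p below 0.05 there, where 3.02% of all genes did and were higher. In ppm the groups did not overlap for Tlr9 and Ly96, which were higher, as on the deposited scale, beside 5.44% of genes higher throughout. Tlr2, Tlr6 and Cd14, apart on the deposited scale, overlapped in ppm. Tlr3, which overlapped on the deposited scale, was lower throughout in ppm, beside 11.4% of genes. It was at 29.1 to 50.6 ppm in sham and 22.4 to 28.0 ppm in OHT. Against the mean of the microglia and macrophage list, the members' median was 0.07 and that of all genes -0.61, with 5 members above 0; Tlr7 stood at -0.16 and Myd88 at -0.10. With quantile normalisation the members' median was 0.23 against 0.01 for all genes. DESeq2 on the recovered reads called 54 genes higher (0.389% of the 13895 with an adjusted p) and 196 lower, none of them a member. At an unadjusted p below 0.05 DESeq2 had 4 members higher (Tlr6, Tlr9, Cd14 and Ly96) beside 7.27% of all genes, and edgeR, which called no gene, had 3 (Tlr6, Tlr9 and Ly96) beside 6.12%.

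**Figure D2:**
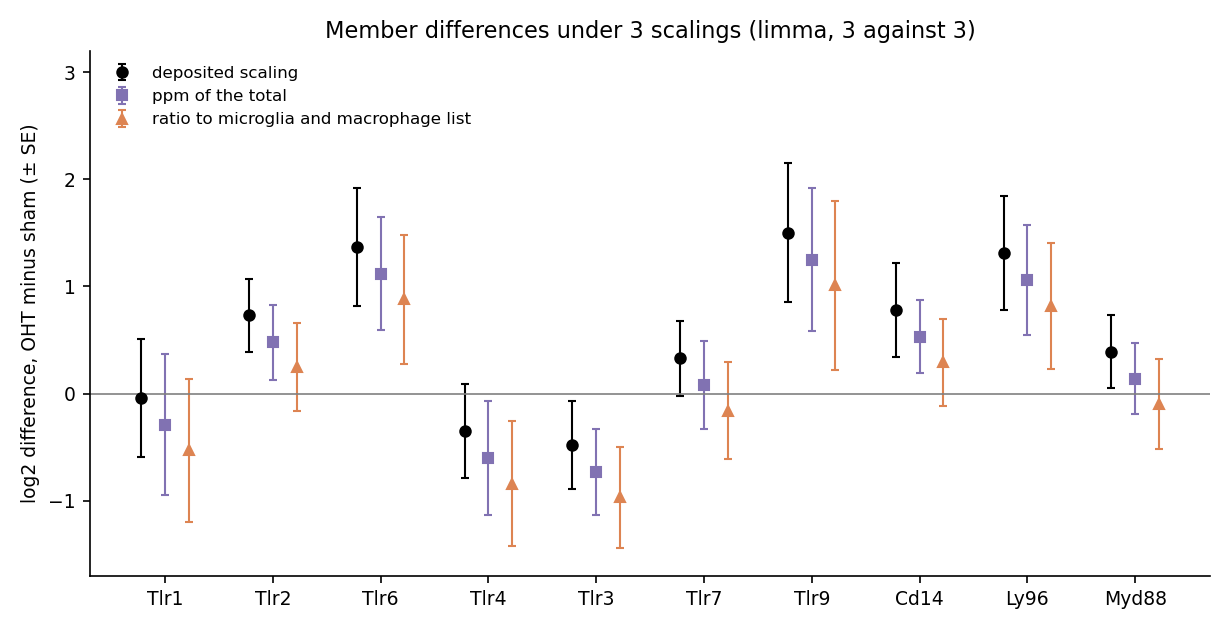
Log2 difference of OHT minus sham, with its SE, of each gene under the deposited scaling, in ppm of the total and relative to the microglia and macrophage list. Tlr6, Tlr9 and Ly96 are above 0 on all 3 scales, at 0.88, 1.01 and 0.82 on the last, and Tlr3 and Tlr4 below 0.

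Summed over the members, reads made up 0.172%, 0.161% and 0.192% of sham replicates 1 to 3 and 0.288%, 0.200% and 0.255% of OHT replicates 1 to 3. The OHT libraries were all higher, at a mean of 0.248% ± 0.0447 against 0.175% ± 0.0156 (SD, n = 3 each; exact two-sided permutation p = 0.1, the smallest that 3 against 3 can give). Cd14 carried most of this sum. Without it the shares were 0.0488% to 0.0671% in sham and 0.0515% to 0.0992% in OHT, which overlap (exact permutation p = 0.4). Other cell type genes differed between the same libraries. The microglia and macrophage list overlapped between the groups, with 4 of 13 genes at an unadjusted limma p below 0.05 and higher in OHT, beside the 5.37% of all genes. The list of monocytes and border macrophages (9 of 9 listed) was at 0.155% to 0.862% in sham and 1.38% to 1.67% in OHT. Lyz2, a lysozyme of macrophages, made up most of it, at 997 to 7530 ppm in sham and 11852 to 14571 ppm in OHT. Ms4a7 was also higher throughout, at 117 to 519 ppm and 871 to 1474 ppm. Of the 9 genes 6 had a log2 difference above 0 and 3 below, and in ppm the OHT mean was 0.32 of the sham mean for Ly6c2, 0.84 for Lyve1, 0.87 for Cd163 and 1.01 for F13a1. Neutrophil genes were nearly absent, with 1 of 6 listed. Rod genes (14 of 14 listed) were at 0.300% to 2.79% in sham and 0.105% to 0.379% in OHT, which overlap (exact permutation p = 0.2), with 13 of 14 at an unadjusted limma p below 0.05 and lower, beside 6.3% of all genes. The lists of endothelial cells (0.0219% to 0.0467% in sham, 0.0108% to 0.0204% in OHT) and of mural cells and fibroblasts (0.0115% to 0.0259% and 0.000888% to 0.00403%) were lower in OHT without overlap (exact permutation p = 0.1 each). Astrocyte genes were at 0.00184% to 0.145% and 0.00352% to 0.0107%, with overlap. The part of these differences in the members' values was not tested, and in bulk libraries fewer cells of a type and less RNA per cell cannot be told apart.

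Levels were compared between genes in ppm per kilobase of the longest GENCODE M21 transcript. In sham the order was Cd14 at 698 ± 56.9 ppm per kb (SD, n = 3), Tlr2 at 99.7 ± 30.0, Myd88 at 23.7 ± 1.50, Tlr7 at 22.6 ± 4.94, Ly96 at 16.2 ± 6.99, Tlr1 at 16.1 ± 2.67, Tlr4 at 9.56 ± 1.37, Tlr3 at 9.42 ± 2.53, Tlr6 at 3.94 ± 1.35 and Tlr9 at 1.18 ± 0.384. Cd14 and Tlr2 stood clear of the rest. Myd88, Tlr7, Ly96 and Tlr1 were each within 1 SD of the next in this order, as were Tlr4 and Tlr3. In OHT the order was led by the same pair, at 1045 ± 359 and 139 ± 39.6 ppm per kb, and Ly96 came next at 32.2 ± 4.28. Transcript length matters to the middle of the order: with the median transcript length Tlr3 moved from place 8 to place 4 over the 6 sorted libraries, and Cd14, Tlr2 and Tlr9 kept places 1, 2 and 10.

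The primary cultures held a different set. Since the tables were normalised separately, levels are given in ppm without a test. Tlr7 was at 0.181, 0.251 and 0.365 ppm in the cultures against 53.7 to 155 ppm over the 6 sorted libraries, 354-fold lower in the mean. Cd14 was at 7.06, 4.93 and 10.2 ppm against 1065 to 2368 ppm, 193-fold lower. Tlr1 was at 0.437, 0.251 and 0.326 ppm against 12.1 to 112 ppm, 156-fold lower. These 3 were far below every sorted library. Tlr2 was at 6.18 to 7.23 ppm (52.8-fold lower) and Tlr6 at 1.73 to 2.17 ppm (12.4-fold lower). The other members differed by far less. Tlr3 was at 8.55 to 11.9 ppm (3.31-fold lower) and Myd88 at 26.6 to 28.9 ppm (2.23-fold lower), both still below each sorted library. Tlr4, at 11.6 to 17.9 ppm, and Ly96, at 8.02 to 16.6 ppm, overlapped the sorted range.

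**Figure D3:**
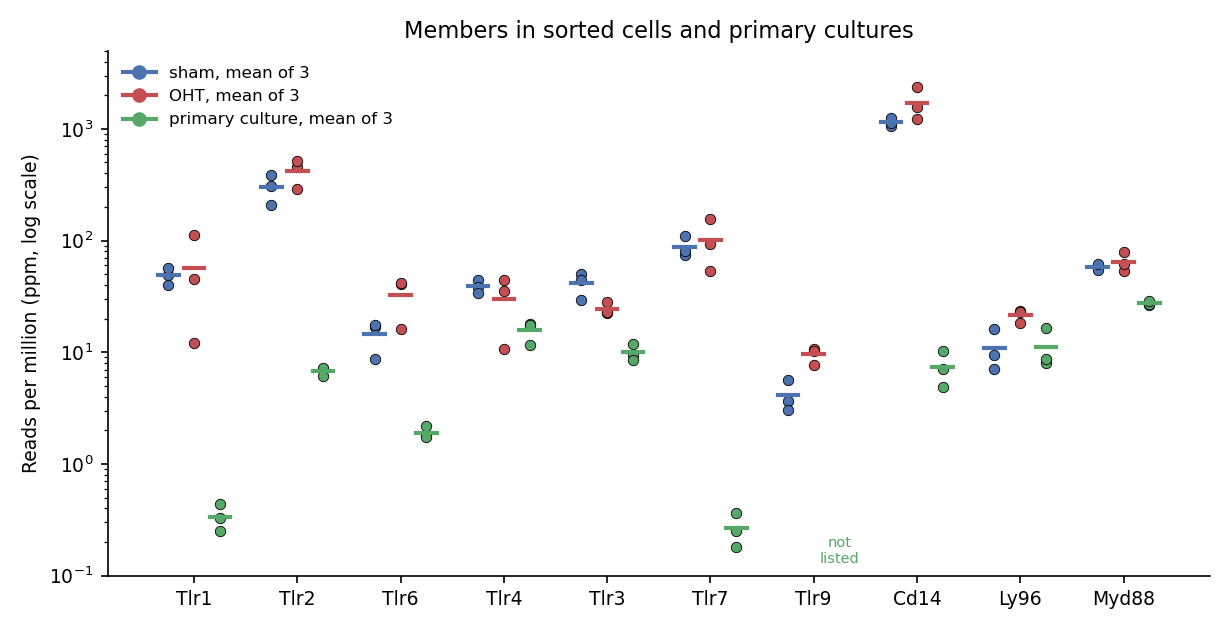
Level in ppm of each library (log axis) for the 10 genes in sham, OHT and primary culture libraries; points are libraries and bars the mean of 3. The cultures lie far below the sorted cells for Tlr7, Tlr1, Cd14 and Tlr2 and within or close to them for Ly96, Tlr4, Myd88 and Tlr3.

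Per kilobase the culture order was Ly96 (16.7 ± 7.16 ppm per kb, SD, n = 3), Myd88 (11.2 ± 0.497), Cd14 (4.51 ± 1.62), Tlr4 (3.86 ± 0.880), Tlr3 (2.27 ± 0.394), Tlr2 (2.26 ± 0.187), Tlr6 (0.518 ± 0.0631), Tlr1 (0.112 ± 0.0310) and Tlr7 (0.0682 ± 0.0238). Ly96 and Myd88, Cd14 and Tlr4, and Tlr3 and Tlr2 were each within 1 SD of one another. Tlr3 exceeded Tlr7 per kilobase by 20.7 to 58.2 times in the cultures, whereas in sorted cells it was at 0.132 to 0.536 of Tlr7. With the median transcript length these ratios were 63.8 to 179 in the cultures and 0.407 to 1.65 in sorted cells, where Tlr3 then exceeded Tlr7 in 3 of 6 libraries. Ly96 exceeded Tlr4 by 2.78 to 5.68 times, and Cd14 was at 0.693 to 2.19 of Tlr4. With the median transcript length Ly96 was at 0.902 to 1.84 and Cd14 at 0.279 to 0.882 of Tlr4, and in the culture order Tlr3 moved from place 5 to place 2 and Cd14 from place 3 to place 5. Together the 9 listed members made up 0.00767% to 0.00896% of the culture libraries. The low culture levels of Tlr7, Cd14 and Tlr1 stood beside the low share of microglia and macrophage genes given above; the part of cell makeup in them was not tested.

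Beyond the members, 66 other genes of the pathway were read by role. Of these 65 are listed in the sorted table (Nos2 is not) and 64 had a mean of at least 10. None passed the adjusted threshold. At an unadjusted p below 0.05 there were 5, all higher in OHT (Tlr8, Lbp, Tasl, Il1b and Ccl5), beside the 5.37% of all genes given above. In 5 of the 64 each OHT library lay above each sham library, beside 9.26% of all genes. In 1 each lay below, beside 9.18%. The median log2 difference of the 64 was 0.20, with 41 above 0 and 23 below. The medians of trafficking factors (0.03), adaptors (0.16), kinases and ubiquitin enzymes (0.06), transcription factors (0.03) and inhibitors (-0.14) lay near 0.

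Of the other receptors, Tlr8, an endosomal receptor for RNA, had counts of 188, 370 and 795 in sham and 2457, 893 and 1082 in OHT. All OHT libraries were higher, with a difference of 1.80 (SE 0.62, limma adjusted p = 0.343). Tasl, the adaptor through which the endosomal receptors activate Irf5, had 1536, 1032 and 1162 in sham and 3078, 2838 and 2719 in OHT. The groups were wide apart and the OHT libraries close together, at a difference of 1.23 (SE 0.36, limma adjusted p = 0.332). Tlr8 and Tasl had the smallest limma p of their roles, the rule by which they were named. Unc93b1, the chaperone that carries the endosomal receptors out of the endoplasmic reticulum, was at 28614 to 35066 in sham and 18732 to 47293 in OHT, a difference of 0.03 that was -0.22 in ppm. Irf5 itself was at 5394 to 7696 and 3187 to 9574, a difference of 0.10 that was -0.15 in ppm. Ly86, the partner of the receptor homologue Cd180, differed by 0.67 (SE 0.45, limma adjusted p = 0.549), with overlap, and by 0.24 without OHT replicate 1 and 1.14 without OHT replicate 3.

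Among the signalling genes, Traf6, the ubiquitin ligase below MyD88, had counts of 1481, 1482 and 1227 in sham and 264, 1371 and 595 in OHT. OHT replicate 2 lay within the sham range and the other 2 below it; the difference was -1.21 (SE 0.58, limma adjusted p = 0.443) and -0.62 without OHT replicate 1. Rela, the p65 subunit of NF-kB, differed by -0.73 (SE 0.44, limma adjusted p = 0.520), and by 0.03 after the GC and length correction. Tirap, the bridge between Tlr2 or Tlr4 and Myd88, differed by 0.65 (SE 0.54), and by 0.10 without OHT replicate 1. Pik3ap1 (BCAP) was at -0.01 (SE 0.34). The ligase Peli1 was at -0.66 (SE 0.61) and at 0.19 without OHT replicate 3. Socs1, a feedback inhibitor, was at -2.34 (SE 1.33), resting on 4.81 counts in OHT replicate 3, and at -0.73 without it. Nfkbia, which holds NF-kB in the cytoplasm, was at 0.42 (SE 0.42).

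Of the 13 listed cytokine and response genes, 12 were above 0, with a median of 0.90 against -0.12 for all genes. Il1b, a cytokine that macrophages make, had counts of 4058, 4071 and 9524 in sham and 20658, 7960 and 15365 in OHT. OHT replicate 2 lay below sham replicate 3, and the difference was 1.33 (SE 0.45, limma adjusted p = 0.343). The chemokine Ccl4 had 125616, 52055 and 55292 in sham and 260151, 86018 and 107719 in OHT. Sham replicate 1 lay within the OHT range, with a difference of 0.91 (SE 0.51, limma adjusted p = 0.497). It was 0.43 without OHT replicate 1, 0.32 after the GC and length correction, and 0.16 and 0.09 with the microglia and the rod list as a covariate. For none of these 13 genes were the groups fully apart.

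**Figure D4:**
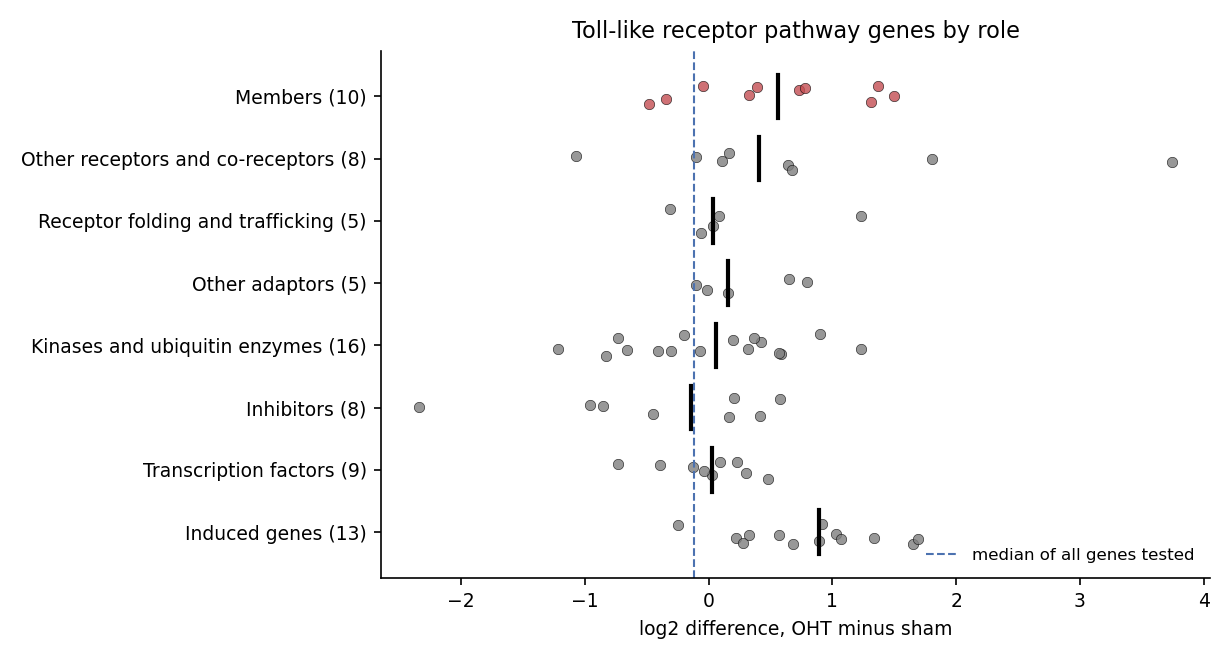
Log2 difference of OHT minus sham for the 10 members and for 64 other pathway genes by role; points are genes, black bars the median of a role, and the dashed line the median of all 14403 genes (-0.12). The induced genes and the members have the highest medians, 0.90 and 0.56.

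Over the 6 sorted libraries the members' mean log2 level, each centred on its own mean, was -0.09, -0.44 and -0.31 in sham and 0.40, 0.11 and 0.33 in OHT. Of 11462 genes with an average of 100 or more, those with the most similar course were Upf1 (Pearson r 0.996), a helicase of RNA decay, Rgs2 (0.995), a regulator of G-protein signalling, and Med11 (0.994), a subunit of Mediator. These are descriptions over 6 libraries that share their scaling factors.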

How the data were processed

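The deposited signal is 1 value per gene and library, a gene's read count divided by the authors' factor for that library; with the step between low values taken as 1 read, 100% of values were whole (tolerance 0.05 reads). Per the submitters' processing notes, bcl2fastq 2.20, Trim Galore 0.6.6, FastQC 0.11.9 and STAR 2.7.1a were used with mm39. For the counting program, the annotation and the normalization, a tool is not given in the sources used here. cDNA was amplified from low input without molecular identifiers, per the labels, so a limit of 3 reads for a count of 0 covers counting error only. Replicates differed by more than counting noise in each pair.

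OHT and sham were compared with limma 3.58.1 (R 4.3.3; eBayes with trend) on log2(value + 1), which understates changes of low genes, in 14403 genes with a mean of at least 10, with Benjamini-Hochberg adjustment at 0.05. Shares were compared by exact permutation, with the total of each library as denominator. The 2 tables were normalized separately and no test was made across them. Members, lists and rules were chosen with earlier results of these data known. Named genes are the members, the gene with the smallest p and the gene with the highest mean in each role, and the 3 genes most like the members; Lbp and Ccl5 were named after their values were seen. Alternatives were other pseudocounts (0.5 and 10), filters, scalings, covariates, weights, a GC and length correction (splines with 4 degrees of freedom, GENCODE M21 transcripts, GRCm38), a replicate block, leaving out each library, and edgeR 4.0.16 and DESeq2 1.42.0 on the recovered reads. Promoter windows are from RefSeq (GRCm38.p6). Scripts were tested on simulated data. Further tools were matplotlib 3.10.9, scipy 1.17.1, pandas 2.3.3 and numpy 2.4.6 under Python 3.11.15.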

Additional observations from a re-analysis of the deposited data

How the results depend on the processing

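No member and no other pathway gene was called under any alternative run. Over all genes the number called was 250 with DESeq2, 1 with the microglia list as a covariate, 2 with the replicate block and 0 to 12 when leaving out 1 library (12 without sham replicate 1, all lower; 7 without sham replicate 3, all higher). Deviations of same-numbered libraries from their group means correlated at 0.078, -0.025 and -0.045, and those of differently numbered libraries at -0.073 to 0.1. With 3 libraries in a group these values do not settle whether the libraries were paired. In this balanced design the replicate block leaves each log2 difference as it was, so it could not turn the direction of a member. The difference in summed share was 0.0725 percentage points, 0.0522 to 0.0964 when leaving out 1 library and 0.0155 without Cd14, a choice made after the data were seen.

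Tlr2, Tlr3, Tlr6, Tlr9, Cd14 and Ly96 kept their direction in all 22 alternatives. Among these, eBayes without trend, the other filters and the replicate block leave a member's difference unchanged by construction, so they could not turn it. Tlr9 ranged from 1.01 to 2.16, Tlr6 from 0.88 to 1.88 and Ly96 from 0.48 to 1.61. Directions turned as follows, and the cause was not tested. Tlr1 was 0.25 with DESeq2 and with edgeR, 0.12 with the GC and length correction, 0.22 with array weights, 0.74 with the microglia covariate and 0.31 with the rod covariate (leave-one-out -0.63 to 0.58). Tlr4 had a leave-one-out range of -0.57 to 0.06. Relative to the microglia list Tlr7 was -0.16, Myd88 -0.10, Nfkbia -0.07, Unc93b1 -0.45 and Irf5 -0.39. With the microglia covariate Ly86 was -0.07, Unc93b1 -0.38, Nfkbia -0.09, Irf5 -0.52 and Pik3ap1 0.07. With the rod covariate Ly86 was -0.05, Unc93b1 -0.42, Nfkbia -0.22 and Irf5 -0.66. With quantile normalization Unc93b1 was -0.38 and Irf5 -0.23, and in ppm -0.22 and -0.15. With the GC and length correction Pik3ap1 was 0.48 and Rela 0.03, and with array weights Pik3ap1 was 0.09. Leave-one-out ranges that crossed 0 were -0.22 to 0.45 for Unc93b1, -0.21 to 0.17 for Pik3ap1, -1.21 to 0.19 for Peli1 and -0.18 to 0.61 for Irf5. With 3 libraries of each group and a spread this wide, member differences of the sizes seen were not resolved from the spread between libraries (each member had 129 normalised counts or more in every sorted library).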
